A study of Mus musculus with 6 samples.

Results

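The 35 genes described here act in the uptake, storage and release of fatty acids. They were chosen by gene symbol from textbook roles in this route, with earlier results of these data known. Counts of members set beside shares of all genes therefore describe the members and are no independent test. All 35 were measured, among the 15909 genes in the deposited table, and they were followed in mouse left ventricles after myocardial infarction (MI). Of the 35, 8 act in uptake and binding, 4 in activation, 6 in triglyceride synthesis, 7 on the coat of the lipid droplet, and 10 are lipases or lipase regulators.

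The CCN3 group held 3 libraries from hearts of adult mice that underwent surgical MI and received recombinant human CCN3 at 6 µg/kg by intraperitoneal injection. The PBS group held 3 libraries from hearts with the same injury, given the vehicle PBS in the same way. The tissue was the left ventricle at 4 days after injury (4 dpi), and the methods of the study give the C57/B6J strain for its CCN3 injections. No genetic change was described in either group, and no uninjured hearts were among the 6 libraries. CCN3 is a secreted matricellular protein, and the comparison asks how its injection alters expression in the infarcted ventricle.

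The heart draws most of its energy from fatty acids. Lipoprotein lipase releases them from circulating triglyceride at the capillary wall, Cd36 and the Slc27a transporters move them into the cell, and small fatty acid binding proteins carry them in the cytosol. Acyl-CoA synthetases join them to coenzyme A, after which they are burned in mitochondria or stored as triglyceride in lipid droplets, small organelles coated by perilipins. Storage ends with an acyltransferase step that Dgat1 and Dgat2 catalyse, and lipases with their partner proteins release the fatty acids again.

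Values are log2 CPM, read counts scaled to a common library size. The authors had taken 2 factors of unwanted variation out of them before deposit, so every SD and p-value covers only the spread left after that removal. Differences between groups were tested with limma over all 15909 genes, with an adjusted p under 0.2 as the threshold for passing. The lowest adjusted p of any gene was 0.110 by limma, so a much stricter threshold would pass none. Of heart muscle genes, Myh6, the main adult myosin heavy chain, stood at 13.11, 13.01 and 13.12 log2 CPM in CCN3 libraries and at 13.30, 13.05 and 13.11 log2 CPM in PBS libraries. The ventricle label was checked on myosin light chains, named here after their values were seen. The ventricular Myl2 stood at 12.08, 11.82 and 11.88 log2 CPM in CCN3 libraries and at 12.45, 12.21 and 12.35 log2 CPM in PBS libraries, and the atrial Myl7 between 2.72 and 3.30 log2 CPM in CCN3 libraries and between 2.25 and 3.39 log2 CPM in PBS libraries. CPM summed to between 1001644 and 1031634 per library. The labels call the samples biological replicates without saying that each came from a separate animal, and p-values then measure only the spread between these libraries.

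Within this route, the genes that passed were Dgat2, which makes triglyceride, and Ces1d, a lipase, and both were lower in CCN3 treated hearts. None of the 35 was higher and 2 were lower, whereas over all genes 0.515% were called higher and 1.08% lower, 1.60% in all. At an unadjusted p under 0.05, 3 of the 35 had positive and 9 negative log2 fold changes by limma, against 4.05% and 6.59% of all genes, the shares beside which the later counts of this kind stand. CCN3 libraries lay wholly below PBS libraries for 13 of the 35 and wholly above for 4, against 18.2% and 15.1% of all genes, and for 18 the groups overlapped. The median log2 fold change of the 35 was -0.06, compared with -0.00 over all genes tested, and single values ran from -1.05 to 0.50. These counts moved with single libraries, as did those over all genes. Without PBS 1, 3 members were higher and 9 lower, beside 951 higher and 1268 lower of all genes, against 82 and 172 with all 6 libraries. Passes of single genes in that fit, given below, stand beside these larger counts. Of the 6 fits with a library left out, Vldlr, Lipe, G0s2, Fabp3, Fitm2, Acsl4, Plin2 and Cidec passed in that 1 alone. Without CCN3 1, 4 members were lower, beside 825 of all genes, and without PBS 3, 1 was lower, beside 28. Without the mean-variance trend no member was lower, beside 1 gene in all, and with treatment as the only model term 12 were lower and 4 higher, beside 2633 and 2138 of all genes.

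**Figure D1:**
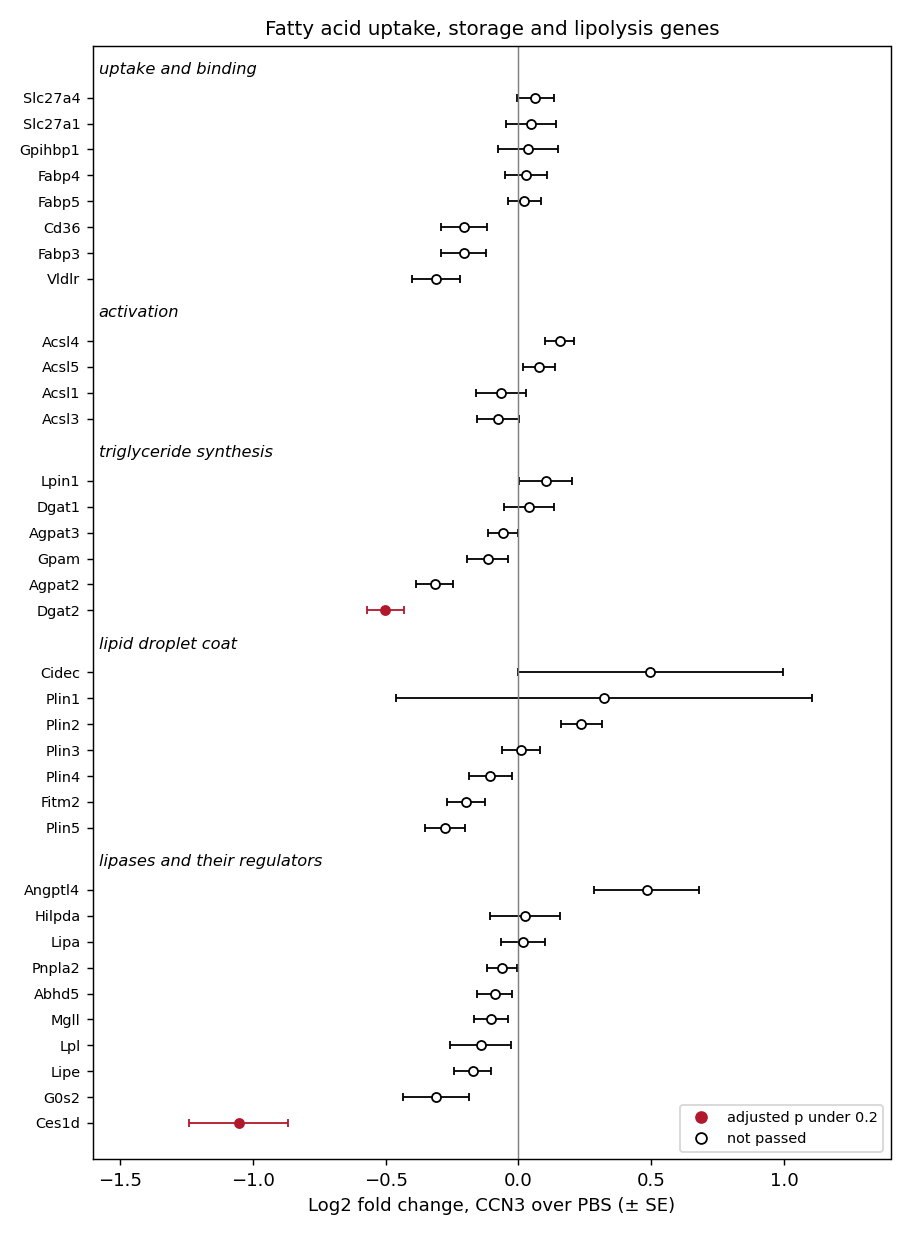
Log2 fold change of each of the 35 genes (x axis, CCN3 over PBS) with its limma standard error, grouped by role down the y axis. Filled points mark Dgat2 at -0.50 and Ces1d at -1.05, which passed at an adjusted p under 0.2. The widest bars belong to Plin1 and Cidec.

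The 35 genes together gave 11125, 11049 and 10989 CPM in CCN3 libraries, against 12026, 12095 and 12122 CPM in PBS libraries. The groups did not overlap, and this sum was not tested. Lpl alone held 42.4% of it on average, Cd36 13.0%, Fabp3 12.3% and Fabp4 6.53%, so that 4 genes carried 74.1% and the sum mostly follows them. In bulk tissue, fewer cells of a type and less RNA per cell cannot be told apart, and this holds for every gene below.

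The DNA just before the start sites of Dgat2 and Ces1d is shown because transcription of the genes that passed begins there. Dgat2 lies at chr7:98802491-98831991 on the minus strand and Ces1d at chr8:93892693-93924466 on the minus strand of the GRCm39 assembly. The 250 bases before the start of the canonical transcript, read from that genome with GENCODE annotation, span chr7:98831962-98832211 for Dgat2 and chr8:93924467-93924716 for Ces1d. Capitals mark AGGTCA, the hexamer that nuclear receptors such as PPAR and RXR bind, which was searched on both strands. The 5′ to 3′ sequences on the strand of the gene are
Dgat2: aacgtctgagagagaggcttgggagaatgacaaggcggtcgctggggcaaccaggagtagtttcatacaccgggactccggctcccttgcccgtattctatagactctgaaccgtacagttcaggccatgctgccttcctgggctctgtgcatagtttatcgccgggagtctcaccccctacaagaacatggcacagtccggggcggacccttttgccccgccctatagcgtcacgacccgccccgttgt
Ces1d: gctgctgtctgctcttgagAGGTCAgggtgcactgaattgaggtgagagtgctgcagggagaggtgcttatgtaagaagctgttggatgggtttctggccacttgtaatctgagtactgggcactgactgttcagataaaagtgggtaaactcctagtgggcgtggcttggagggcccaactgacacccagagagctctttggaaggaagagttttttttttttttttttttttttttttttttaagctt
The Ces1d stretch holds the hexamer 1 time, starting 231 bases before the start, and the Dgat2 stretch does not hold these letters. AGGTCA was found in 7 of the 35 members (20%), namely Fabp4, Gpam, Agpat3, Plin2, Plin5, Abhd5 and Ces1d, and in 1591 of 13788 protein-coding genes (11.5%) with a window of the same length. A direct repeat, AGGNCA followed by 1 further base and AGGNCA again, can overlap the hexamer and was found in 0 of the 35 and in 35 of 13788 (0.254%). A match of letters is a description and shows no binding.

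Triglyceride synthesis held the member with the smallest p. Dgat2, the acyltransferase that completes triglyceride from diglyceride and acyl-CoA, stood at 6.79, 6.68 and 6.75 log2 CPM in CCN3 libraries and at 7.34, 7.16 and 7.22 log2 CPM in PBS libraries. All 3 CCN3 libraries lay below all 3 PBS libraries, and the gap was wider than the range within either group. Dgat2 fell in CCN3 treated hearts with a log2 fold change of -0.50 ± 0.07 (SE), 0.707 times the PBS level (limma adjusted p = 0.123). It ranked 34 of 15909 genes by p and passed with each of the 6 libraries left out in turn, with log2 fold changes between -0.54 and -0.45. Without the mean-variance trend in the test it did not pass (limma adjusted p = 0.403).

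Agpat2, which adds the second acyl chain to make phosphatidic acid, stood just outside the threshold. It had 4.59, 4.58 and 4.62 log2 CPM in CCN3 libraries and 4.97, 4.88 and 4.89 log2 CPM in PBS libraries. The groups were again fully separated, with CCN3 below, at a log2 fold change of -0.31 ± 0.07 (limma adjusted p = 0.201). Without PBS 1, PBS 2 or CCN3 1 it passed, at limma adjusted p = 0.079, 0.155 and 0.126 in that order of libraries left out. The gene lies at chr2:26483061-26494637 on the minus strand.

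The other enzymes of the route did not pass. Gpam, the mitochondrial acyltransferase that begins glycerolipid synthesis, had a log2 fold change of -0.12 ± 0.08, and Agpat3, a related acyltransferase, one of -0.06 ± 0.06. Lpin1, the phosphatidate phosphatase that makes diglyceride, had 0.10 ± 0.10, and Dgat1, the unrelated enzyme for the same final step as Dgat2, had 0.04 ± 0.09. The groups overlapped for all 4 of these, and the adjusted p-values by limma were between 0.673 and 0.927. Of the 6 genes, 1 was lower, 0 were higher, 2 had an unadjusted p under 0.05 (Dgat2 and Agpat2), and the median log2 fold change was -0.09.

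Ratios within this family were separated by group. Per kb of canonical transcript, the Dgat2 level was 6.06, 5.61 and 5.57 times that of Dgat1 in CCN3 libraries, against 8.36, 8.20 and 8.53 times in PBS libraries. Agpat3 over Agpat2 was 1.06, 1.10 and 1.04 in CCN3 libraries, against 0.831, 0.934 and 0.915 in PBS libraries. Neither ratio overlapped between groups, and the ratios were set up after the differences of single genes were known and were not tested.

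Among lipases, Ces1d had the largest log2 fold change by size of the 35 genes. Ces1d encodes a carboxylesterase that hydrolyses triglyceride in mouse liver and fat. It stood at 4.55, 4.57 and 4.88 log2 CPM in CCN3 libraries and at 6.11, 5.52 and 5.53 log2 CPM in PBS libraries. CCN3 libraries were all below PBS libraries, CCN3 3 was the highest of its group and PBS 1 stood above both other PBS libraries. Ces1d fell with a log2 fold change of -1.05 ± 0.18, 0.482 times the PBS level (limma adjusted p = 0.162). It passed in 5 of the 6 fits with a library left out and not without PBS 3 (limma adjusted p = 0.202), with values between -1.16 and -0.86. Nor did it pass with robust empirical Bayes or without the mean-variance trend (limma adjusted p = 0.260 and 0.424). No 101-base stretch of its canonical transcript was shared with a transcript of another gene. Ces1f, a gene of the same carboxylesterase cluster, was chosen after its values were seen and stood under 1 log2 CPM in all 6 libraries. Its log2 fold change was -0.05 ± 0.60 (limma adjusted p = 0.991), with overlapping groups. With so wide an SE, this value cannot tell no change from a fall as large as that of Ces1d.

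The classical lipolysis enzymes had smaller differences, and none of them passed. Pnpla2, which encodes adipose triglyceride lipase, had 6.58, 6.64 and 6.65 log2 CPM in CCN3 libraries and 6.69, 6.70 and 6.67 log2 CPM in PBS libraries, a log2 fold change of -0.06 ± 0.06. Lipe, which encodes hormone-sensitive lipase, had 4.49, 4.49 and 4.52 log2 CPM in CCN3 libraries and 4.70, 4.66 and 4.66 log2 CPM in PBS libraries, a log2 fold change of -0.17 ± 0.07 (limma adjusted p = 0.446). CCN3 was below PBS without overlap for both lipases, and for Lipe by more than the range within each group. Mgll, which cleaves the last fatty acid from glycerol, had -0.10 ± 0.06 with overlapping groups, and Lipa, the lysosomal acid lipase, had 0.02 ± 0.08. Without PBS 1, Lipe passed (limma adjusted p = 0.181).

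Regulators of these lipases had log2 fold changes of both signs. Abhd5, the co-activator of Pnpla2, had a log2 fold change of -0.09 ± 0.07 with CCN3 below PBS. G0s2, an inhibitor of Pnpla2, had 4.08, 4.27 and 4.10 log2 CPM in CCN3 libraries and 4.24, 4.63 and 4.52 log2 CPM in PBS libraries, with CCN3 2 just above PBS 1. Its log2 fold change was -0.31 ± 0.12 (limma adjusted p = 0.447), and without PBS 1 it passed (limma adjusted p = 0.099). Hilpda, a hypoxia-induced inhibitor of Pnpla2, had 0.02 ± 0.13 with overlapping groups.

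Lpl, the lipoprotein lipase, was the most abundant of the 35 by CPM. It stood at 12.24, 12.17 and 12.14 log2 CPM in CCN3 libraries and at 12.30, 12.33 and 12.36 log2 CPM in PBS libraries. CCN3 libraries were below PBS libraries without overlap, but the log2 fold change of -0.14 ± 0.12 did not pass (limma adjusted p = 0.736). Angptl4, a secreted protein that inactivates lipoprotein lipase, had 4.97, 4.78 and 4.47 log2 CPM in CCN3 libraries and 3.89, 4.39 and 4.48 log2 CPM in PBS libraries. PBS 1 was far below the rest, CCN3 3 and PBS 3 were close, and the log2 fold change of 0.48 ± 0.20 did not pass (limma adjusted p = 0.456). Per kb, Lpl was 124, 135 and 165 times Angptl4 in CCN3 libraries, against 273, 196 and 189 times in PBS libraries, without overlap and without a test. Of the 10 lipases and regulators, 1 was lower, 0 were higher, and 3 with negative and 1 with a positive log2 fold change had an unadjusted p under 0.05, with a median log2 fold change of -0.10.

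**Figure D2:**
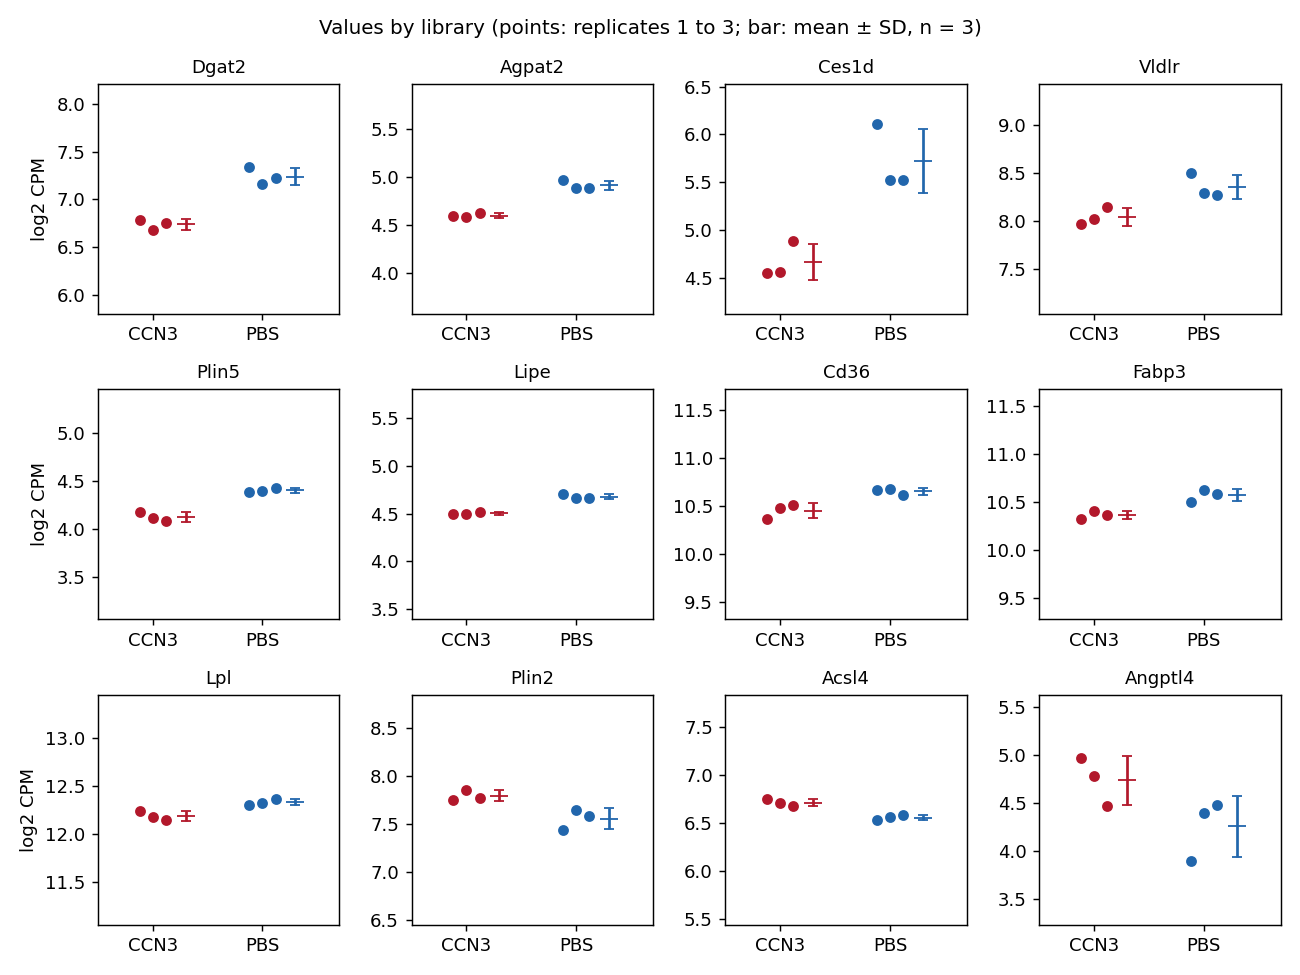
Log2 CPM (y axis) of 12 genes in the 3 CCN3 libraries and, to their right, the 3 PBS libraries, with the mean and SD of each group (n = 3) beside the points. Dgat2, Agpat2, Ces1d, Vldlr, Plin5, Lipe, Cd36, Fabp3 and Lpl were lower in every CCN3 library than in any PBS library, Plin2 and Acsl4 were higher in every CCN3 library, and Angptl4 overlapped.

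Uptake and binding genes included some of the most abundant transcripts of the 35, and none of the 8 passed. Vldlr, the receptor for very low density lipoprotein, had 7.97, 8.02 and 8.15 log2 CPM in CCN3 libraries and 8.51, 8.30 and 8.27 log2 CPM in PBS libraries. The groups did not overlap, and the log2 fold change was -0.31 ± 0.09 (limma adjusted p = 0.304). Without PBS 1, the highest library, the value was -0.23 and it passed (limma adjusted p = 0.156).

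Cd36, the main fatty acid translocase of the heart, had 10.36, 10.48 and 10.50 log2 CPM in CCN3 libraries and 10.67, 10.68 and 10.61 log2 CPM in PBS libraries. Fabp3, the heart fatty acid binding protein, had 10.33, 10.41 and 10.36 log2 CPM in CCN3 libraries and 10.50, 10.63 and 10.58 log2 CPM in PBS libraries. Both were lower in every CCN3 library than in any PBS library, with log2 fold changes of -0.20 ± 0.09 and -0.21 ± 0.08 in that order (limma adjusted p = 0.475 and 0.454). Fabp3 passed without PBS 1 (limma adjusted p = 0.127). Of the 101-base stretches of the Fabp3 transcript, 21.6% also occur in a pseudogene, Fabp3-ps1. How reads from those stretches were assigned was not examined, so the effect on the Fabp3 counts is not known.

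The binding proteins Fabp4 and Fabp5 are made mainly by endothelial cells, macrophages and fat cells. Fabp4 had a log2 fold change of 0.03 ± 0.08 and Fabp5 of 0.02 ± 0.06, with overlapping groups. Per kb, the Fabp3 level was 2.61, 3.00 and 3.01 times that of Fabp4 in CCN3 libraries, against 3.33, 3.52 and 3.27 times in PBS libraries. Fabp5 shared 8.85% of its 101-base stretches with other genes.

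The transporters Slc27a1 and Slc27a4, which also carry acyl-CoA synthetase activity, had log2 fold changes of 0.05 ± 0.09 and 0.06 ± 0.07. Slc27a4 was above PBS in each CCN3 library, at 4.50 log2 CPM in all 3 CCN3 libraries and between 4.43 and 4.44 log2 CPM in PBS libraries, and did not pass (limma adjusted p = 0.809). Gpihbp1, which holds lipoprotein lipase on capillary endothelium, had 0.03 ± 0.11 with overlapping groups. Of the 8 genes, 2 had an unadjusted p under 0.05 by limma, Vldlr and Fabp3, and the median log2 fold change was 0.02.

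The activation genes had log2 fold changes of both signs, and none of the 4 passed. Acsl4, which prefers arachidonic acid, had 6.75, 6.71 and 6.68 log2 CPM in CCN3 libraries and 6.53, 6.56 and 6.58 log2 CPM in PBS libraries. Every CCN3 library was above every PBS library, at a log2 fold change of 0.15 ± 0.06 (limma adjusted p = 0.397), and without PBS 1 it passed (limma adjusted p = 0.172). Acsl5 had 0.08 ± 0.06, also with CCN3 above PBS. Acsl1, the main synthetase of heart muscle, had -0.07 ± 0.09 with overlap, and Acsl3 had -0.08 ± 0.08 with CCN3 below PBS. Per kb, Acsl1 averaged 3.74 ± 0.20 times Acsl4 in CCN3 libraries and 4.37 ± 0.53 times in PBS libraries (SD, n = 3 each). Acsl4 was the only one of the 4 with an unadjusted p under 0.05 by limma.

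The lipid droplet coat genes also had both signs, and none of the 7 passed. Plin2, the perilipin found on droplets of most tissues, had 7.75, 7.86 and 7.77 log2 CPM in CCN3 libraries and 7.44, 7.64 and 7.58 log2 CPM in PBS libraries. Plin5, the perilipin of oxidative tissues that ties droplets to mitochondria, had 4.18, 4.11 and 4.09 log2 CPM in CCN3 libraries and 4.38, 4.39 and 4.43 log2 CPM in PBS libraries. For neither did the groups overlap, and they lay on opposite sides: the log2 fold change of Plin2 was 0.24 ± 0.08 (limma adjusted p = 0.342) and that of Plin5 -0.28 ± 0.08 (limma adjusted p = 0.278). Plin5 passed without PBS 1 and without CCN3 1, at limma adjusted p-values down to 0.108, and Plin2 without PBS 1 (limma adjusted p = 0.167). Per kb, the Plin2 level was 13.0, 14.7 and 14.1 times that of Plin5 in CCN3 libraries, against 9.10, 10.4 and 9.74 times in PBS libraries. With Plin2 and Plin5 separated on opposite sides, the separation of this ratio was fixed in advance and adds no evidence.

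Fitm2, an endoplasmic reticulum protein needed for droplet budding, had 4.72, 4.81 and 4.78 log2 CPM in CCN3 libraries and 4.93, 5.02 and 4.97 log2 CPM in PBS libraries. It was lower in every CCN3 library than in any PBS library, at a log2 fold change of -0.20 ± 0.07 (limma adjusted p = 0.386), and without PBS 1 it passed (limma adjusted p = 0.136). Plin3 had 0.01 ± 0.07 and Plin4 -0.11 ± 0.08, both with overlapping groups. Plin4 and Plin5 are neighbours on the minus strand of chromosome 17, at chr17:56406617-56416931 and chr17:56418446-56424610. Of the 7 coat genes, 2 with negative and 1 with a positive log2 fold change had an unadjusted p under 0.05 by limma, and the median log2 fold change was 0.01.

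**Figure D3:**
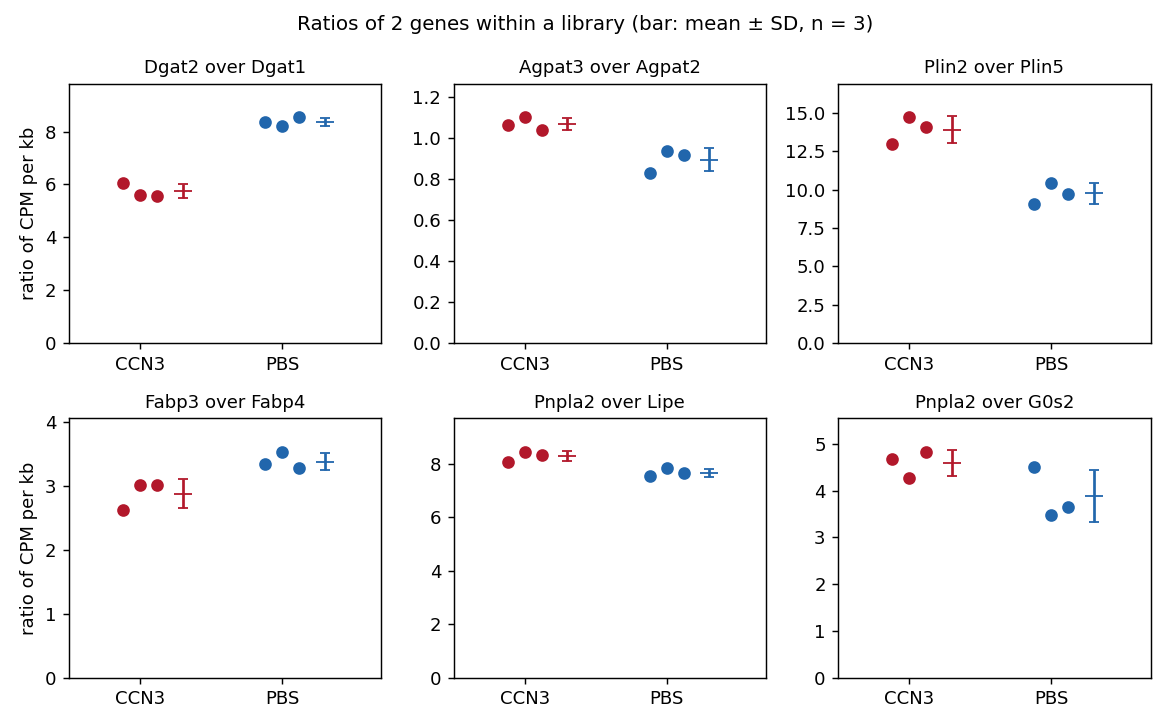
Ratio of the CPM per kb of canonical transcript of 2 genes in each library (y axis from 0), with CCN3 libraries left of PBS libraries and the mean and SD of each group (n = 3) beside the points. CCN3 libraries had the lower Dgat2 over Dgat1 and Fabp3 over Fabp4 and the higher Plin2 over Plin5, Agpat3 over Agpat2 and Pnpla2 over Lipe, while Pnpla2 over G0s2 overlapped. The pairs were picked after the differences of single genes were known, and no ratio was tested.

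Plin1 and Cidec, the coat proteins of large droplets in white fat cells, varied far more between libraries than the other members. Plin1 had 1.78, 0.17 and 1.34 log2 CPM in CCN3 libraries and 2.38, -0.48 and 0.42 log2 CPM in PBS libraries. Cidec had 3.28, 2.39 and 3.17 log2 CPM in CCN3 libraries and 3.51, 1.67 and 2.17 log2 CPM in PBS libraries. For both genes PBS 1 was the highest and PBS 2 the lowest of the 6 libraries, so the groups overlapped. Their log2 fold changes were 0.32 ± 0.78 and 0.50 ± 0.50 in that order (limma adjusted p = 0.931 and 0.792). Without PBS 2 that of Plin1 was -0.30, and without PBS 1 Cidec passed at 1.03 (limma adjusted p = 0.181).

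Adiponectin (Adipoq), a hormone of fat cells, had 4.60, 3.50 and 4.21 log2 CPM in CCN3 libraries and 4.81, 3.02 and 3.64 log2 CPM in PBS libraries. Adipsin (Cfd), another secreted fat cell protein, had 5.79, 4.77 and 5.49 log2 CPM in CCN3 libraries and 6.03, 4.26 and 4.82 log2 CPM in PBS libraries. The order of the 6 libraries was that of Plin1 for both, with PBS 1 highest and PBS 2 lowest. The 14 measured adipocyte markers summed to between 132 and 268 CPM in CCN3 libraries and between 99.6 and 336 CPM in PBS libraries. None of the 14 passed, 11 had positive log2 fold changes, and the median was 0.34. The 1 with an unadjusted p under 0.05 by limma, Aqp7, had a negative log2 fold change of -0.34. Ucp1 was not among the measured genes. Of the defining markers, Adig stood at between -0.40 and 0.21 log2 CPM in CCN3 libraries and between -0.90 and 0.05 log2 CPM in PBS libraries. Lep, the hormone leptin, stood at between -0.72 and 0.47 log2 CPM in CCN3 libraries and between -1.44 and 0.99 log2 CPM in PBS libraries. Log2 values cannot show a count of 0, so they do not settle whether Adig and Lep were detected in every library. Ces1d, also known from fat, was highest in PBS 1 and had the order of Plin1 within PBS libraries, though PBS 3 and PBS 2 were close (5.529 and 5.524 log2 CPM). Within CCN3 libraries it did not follow that order, as CCN3 3 was the highest. The part of fat cells in the values of Plin1, Cidec and Ces1d was not tested.

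**Figure D4:**
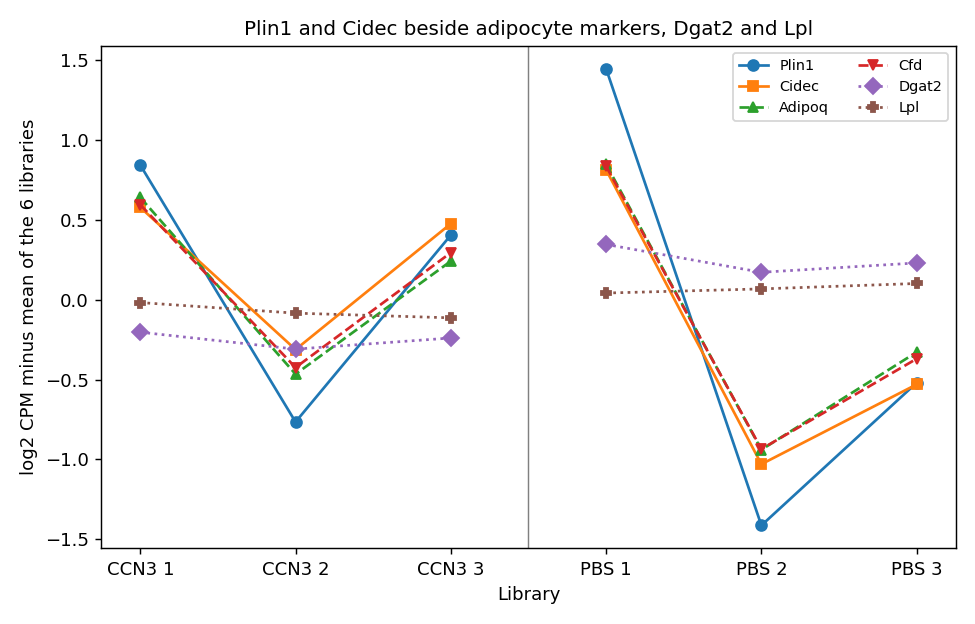
Log2 CPM of 6 genes minus the mean of each gene over the 6 libraries (y axis), by library (x axis, CCN3 left of the grey line and PBS right of it), with lines that join the values of a gene within a group. Plin1, Cidec, Adipoq and Cfd are highest in PBS 1 and lowest in PBS 2, whereas Dgat2 is below its mean in each CCN3 library and above it in each PBS library.

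Compared per kb of transcript, the levels of the 35 genes spanned from Fabp3 to Plin1. Fabp3 averaged 1604 ± 48.1 CPM per kb in CCN3 libraries and 1851 ± 82.6 CPM per kb in PBS libraries, and Lpl 1132 ± 38.7 CPM per kb in CCN3 libraries and 1249 ± 26.0 CPM per kb in PBS libraries (SD, n = 3 each). Fabp4 came next with 560 ± 33.1 CPM per kb in CCN3 libraries and 549 ± 20.1 CPM per kb in PBS libraries, then Cd36 with 399 ± 21.1 CPM per kb in CCN3 libraries and 459 ± 10.9 CPM per kb in PBS libraries. These 4 did not overlap with each other within either group.

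In the middle of the order, Acsl1 at 76.2 ± 8.06 and Lipa at 76.0 ± 3.19 CPM per kb in PBS libraries did not differ beyond their spread. Dgat2 averaged 40.0 ± 1.48 CPM per kb in CCN3 libraries and 56.6 ± 3.52 CPM per kb in PBS libraries, and so stood below Pnpla2 (46.4 to 48.8 CPM per kb) in CCN3 libraries and above it (49.4 to 50.5 CPM per kb) in PBS libraries. Ces1d averaged 12.8 ± 1.71 CPM per kb in CCN3 libraries and 26.8 ± 6.59 CPM per kb in PBS libraries, and in PBS libraries it did not differ from Mgll (26.6 ± 1.23 CPM per kb) beyond the spread. At the low end, Cidec averaged 2.79 ± 0.84 CPM per kb in CCN3 libraries and 2.22 ± 1.54 CPM per kb in PBS libraries, and Plin1 0.788 ± 0.388 CPM per kb in CCN3 libraries and 0.807 ± 0.812 CPM per kb in PBS libraries. Plin2 was the most abundant coat gene in both groups.

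**Figure D5:**
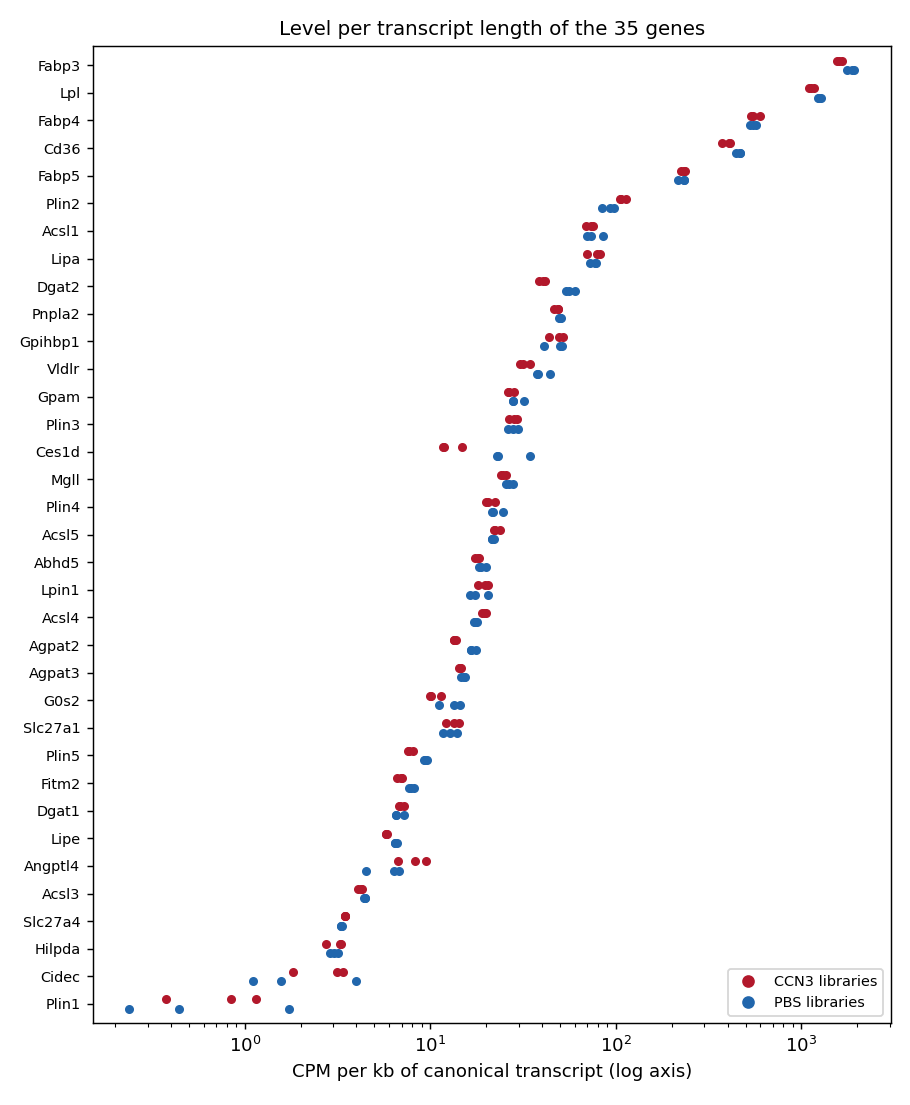
CPM per kb of canonical transcript (x axis, log scale) of the 35 genes, ordered by their mean in PBS libraries, with the 3 CCN3 libraries drawn above the 3 PBS libraries for each gene. Dgat2 and Ces1d are the genes that passed, and Plin1 and Cidec at the bottom have the widest scatter.

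Further genes of the same steps, taken from lists of the pathway, gave no passing gene. Of 15 other uptake and binding genes listed, 10 were measured, of which 6 had positive and 4 negative log2 fold changes, with a median of 0.04 and no unadjusted p under 0.05 by limma. The smallest p there was that of Lrp1, a lipoprotein receptor, at 0.20 ± 0.10 (limma adjusted p = 0.532). Of 13 measured among 14 other activation genes, 7 were negative, 4 of them with an unadjusted p under 0.05, and the median was -0.03. Acss1, the mitochondrial acetyl-CoA synthetase, had -0.23 ± 0.06 with CCN3 below PBS (limma adjusted p = 0.269).

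Of 14 measured among 17 other triglyceride synthesis genes, 10 were positive and 4 negative, with a median log2 fold change of 0.04 and no unadjusted p under 0.05 by limma. Gpd1, which makes glycerol phosphate for storage, had 0.23 ± 0.13 (limma adjusted p = 0.595). Of 21 measured among 33 other droplet and lipase genes, 13 were negative, 2 with an unadjusted p under 0.05, and the median was -0.05. Fitm1, the muscle relative of Fitm2, had 4.27, 3.84 and 3.78 log2 CPM in CCN3 libraries and 4.44, 4.37 and 4.60 log2 CPM in PBS libraries. It was below PBS without overlap, as was Fitm2, at a log2 fold change of -0.51 ± 0.15 (limma adjusted p = 0.304). Of 14 genes of fatty acid synthesis and desaturation, 10 were negative, 2 with an unadjusted p under 0.05, with a median of -0.03, and Acacb, the carboxylase that makes malonyl-CoA, had -0.17 ± 0.05 (limma adjusted p = 0.331).

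Genes that PPAR receptors are known to induce, members left out, had 1 lower and 0 higher of 19 measured. Hadhb, the beta subunit of the mitochondrial trifunctional protein of fatty acid oxidation, had 9.560, 9.589 and 9.624 log2 CPM in CCN3 libraries and 9.996, 9.942 and 9.929 log2 CPM in PBS libraries. It fell with a log2 fold change of -0.36 ± 0.07 (limma adjusted p = 0.178), though not without PBS 3 (limma adjusted p = 0.241). Its partner Hadha had -0.26 ± 0.07 (limma adjusted p = 0.252). Of the 19, 13 were negative and 10 had CCN3 libraries wholly below PBS libraries, with a median log2 fold change of -0.17, and 8 of the 13 had an unadjusted p under 0.05. Over all genes 18.2% lay wholly below and 6.59% were negative at that p.

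Of 24 regulators of lipid handling, none passed, 14 were negative, 4 with an unadjusted p under 0.05 by limma, and the median was -0.05. Ppargc1a, the co-activator of mitochondrial genes, had -0.22 ± 0.07 (limma adjusted p = 0.347), and Ppara, the receptor that drives fatty acid use in the heart, -0.21 ± 0.07 (limma adjusted p = 0.371), both with CCN3 below PBS. Of 16 hypoxia induced genes none passed, 9 were positive, 1 of them, Pgk1, with an unadjusted p under 0.05 by limma, and the median was 0.03. Pgk1, a glycolytic enzyme, had a log2 fold change of 0.18 ± 0.06 (limma adjusted p = 0.342).

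Markers of the cell types in the ventricle were measured beside these genes. Of 15 cardiomyocyte markers, 2 were lower and 0 higher, against 1.08% and 0.515% of all genes. CCN3 libraries lay wholly below PBS libraries for 8 of the 15 and wholly above for 3, against 18.2% and 15.1% of all genes, with a median log2 fold change of -0.31. Cox6a2, a muscle subunit of cytochrome c oxidase, fell by 0.48 on the log2 scale (limma adjusted p = 0.119), and Tnni3, cardiac troponin I, fell by 0.44 (limma adjusted p = 0.177). Tnni3 did not pass without PBS 3 or without CCN3 3 (limma adjusted p = 0.244 and 0.211). Myh6 had -0.07, Tnnt2, cardiac troponin T, 0.01, and Actc1, cardiac actin, 0.30 on the log2 scale. The 15 markers summed to between 41619 and 46050 CPM in CCN3 libraries and between 44641 and 53636 CPM in PBS libraries, which overlapped.

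All 16 capillary endothelial markers had negative log2 fold changes, between -0.36 and -0.01, of which none passed and 4 had an unadjusted p under 0.05 by limma. Over all genes, 8043 of 15909 were negative. CCN3 libraries lay wholly below PBS libraries for 5 of the 16, against 18.2% of all genes, and the groups overlapped for 11. Of the defining markers, Pecam1 had -0.01 and Cdh5 -0.09, both with overlapping groups, and Kdr had -0.22 with CCN3 below PBS. The 16 markers summed to between 1648 and 1811 CPM in CCN3 libraries and between 1837 and 1973 CPM in PBS libraries, without overlap. Of 15 macrophage markers 7 were positive and 8 negative, of 10 fibroblast markers 5 and 5, and of 6 measured neutrophil markers 2 and 4, with none passing. CCN3 libraries lay wholly above PBS libraries for 4 fibroblast, 1 macrophage and 0 neutrophil markers, against 15.1% of all genes. They lay wholly below for 2 fibroblast, 2 macrophage and 1 neutrophil markers, against 18.2% of all genes. In those 3 lists, 2 genes had positive and 1 a negative log2 fold change at an unadjusted p under 0.05 by limma. Macrophage markers summed to between 5235 and 5460 CPM in CCN3 libraries and between 5260 and 5385 CPM in PBS libraries. The part of heart muscle and endothelial content in the lower values of Dgat2, Cd36, Fabp3, Vldlr and Lpl was not tested.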

How the data were processed

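Left ventricle RNA was sequenced as stranded mRNA libraries with 101-base single reads, in 3 CCN3 and 3 PBS libraries. Groups came from the labels. The labels give injections daily for 4 days, while the methods of the study give daily dosing from 1 dpi. Its results section gives 3 daily doses from 1 dpi, with hearts taken 4 h after the last dose. These accounts differ, and the schedule could not be settled. The submitters' processing notes and the methods state that the authors quantified transcripts of GRCm39 with Salmon 1.4.0 and removed 2 factors of unwanted variation, and the deposited values are log2 CPM. How lowly counted genes were filtered, and which prior count was added, is not given in the sources used here. No raw counts entered, read depth is unknown and counting error is not given. The authors also deposited fold changes, p-values and false discovery rates of their own edgeR comparison, which were not used.

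After group means were subtracted, the values varied along 2 of 4 dimensions. The 2 empty directions (singular value under 1e-06 of the largest) entered the model beside treatment, leaving 2 residual degrees of freedom. Testing covered all 15909 genes and used limma 3.58.1 in R 4.3.3 (two-sided, empirical Bayes with a mean-variance trend and 4.47 prior degrees of freedom, Benjamini-Hochberg adjustment), and the procedure was tested on simulated data. The threshold was an adjusted p under 0.2, the cutoff used in the study. SE is from limma, and SD is of the deposited values. CPM per kb is 2 to the power of the deposited value, divided by the length of the canonical transcript. The 35 members and the other lists were chosen with earlier results of these data known. Every member was named, and of each other list the passing genes, up to 4 others with the smallest p and the defining markers were eligible. Alternatives were treatment only, a replicate block, no trend, robust empirical Bayes, centring each library on its median, a minimum mean of 1 log2 CPM, log2(CPM + 1), and leaving out each library.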

Additional observations from a re-analysis of the deposited data

How the results depend on the processing

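By limma, 2 members were lower and 0 higher (3 with positive and 9 with negative log2 fold changes had an unadjusted p under 0.05). With treatment as the only term, which ignores the removed directions, 12 were lower and 4 higher, and 4771 genes passed in all. Without the mean-variance trend 0 members were lower and 1 gene passed in all (1509 had an unadjusted p under 0.05), so that Dgat2 (limma adjusted p = 0.403) and Ces1d (0.424) did not pass. With robust empirical Bayes Ces1d did not pass (limma adjusted p = 0.260) and Agpat2 did (0.164), as it did with the minimum mean of 1 log2 CPM (0.193). With single libraries left out, between 1 and 9 members were lower, between 0 and 3 higher, and between 50 (without PBS 3) and 2219 (without PBS 1) genes passed in all. The other counts of all genes were 437 without PBS 2, 1326 without CCN3 1, 181 without CCN3 2 and 127 without CCN3 3, against 254 with all 6 libraries. The causes were not tested.

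The deviations of same-numbered libraries from their group means had correlations across genes of 0.13, 0.97 and -0.98 for numbers 1, 2 and 3. Number 2 thus deviated together and number 3 oppositely. After the removal all deviations lie in 2 dimensions, which constrains such correlations, so they cannot show whether the numbers pair the samples. The main model did not take the numbers as pairs. With the replicate number as a block, 14 members were lower, 3 higher and 5932 genes passed in all. Not every library correlated best with its own number. Among members, 389 values over all alternatives kept direction and side of the threshold, 44 passed newly, 4 no longer passed and 17 changed sign. The sign changes came with libraries left out, in genes whose groups overlapped. The ranges of their log2 fold changes were -0.019 to 0.064 for Fabp4, -0.011 to 0.042 for Fabp5, -0.014 to 0.11 for Slc27a1, -0.063 to 0.10 for Gpihbp1, -0.12 to 0.018 for Acsl1, -0.30 to 1.13 for Plin1, -0.032 to 0.051 for Plin3, -0.026 to 0.11 for Hilpda and -0.030 to 0.089 for Lipa. Among markers they were -0.12 to 0.77 for Adipoq, -0.078 to 0.81 for Cfd, -0.085 to 1.13 for Lep, -0.13 to 0.0014 for Myh6 and -0.019 to 0.053 for Tnnt2. Centring each library moved the median of all genes to 0.01.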

Other observations

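Retn, which encodes the fat cell hormone resistin, had 2.35, 1.34 and 2.07 log2 CPM in CCN3 libraries and 2.02, 0.24 and 0.80 log2 CPM in PBS libraries, the largest log2 fold change among adipocyte markers at 0.90 ± 0.50 (limma adjusted p = 0.597). Aqp7, the glycerol channel, was the only adipocyte marker with CCN3 libraries wholly below PBS libraries. It had 3.54, 3.42 and 3.44 log2 CPM in CCN3 libraries and 3.85, 3.75 and 3.82 log2 CPM in PBS libraries, a log2 fold change of -0.34 ± 0.09 (limma adjusted p = 0.273).

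Scd1, a desaturase abundant in fat and named here after its values were seen, had 8.05, 6.82 and 7.77 log2 CPM in CCN3 libraries and 8.49, 6.21 and 6.90 log2 CPM in PBS libraries. As with Adipoq, PBS 1 was the highest and PBS 2 the lowest of the 6 libraries.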
